A study of Mus musculus with 16 samples.

Results

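Fibro-inflammatory progenitors (FIPs) were set against mesothelial-like cells (MLCs), with 4 libraries of each, or 8 of the 16 libraries in the series. The other 8 libraries were 4 of adipocyte precursor cells (APCs) and 4 of smooth muscle cells (SMCs), and they entered the search for genes that FIPs and MLCs share, the check of spread by replicate and a fit of all populations. All 16 came from PDGFRb+ cells of C57BL/6 mice at postnatal day 7, taken from epididymal white fat and parted into sub-populations by flow cytometry, and the labels name no treatment and no engineered allele. Members were taken by their population label alone. The labels do not name the antibodies that set the gates. They do not say whether libraries came from separate animals or sorts either, so the p-values speak only of the variation among these libraries, part of which may be technical.

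FIPs are fibroblast-like cells of visceral fat that are known for making extracellular matrix and inflammatory mediators and for resisting fat cell formation. The mesothelium is the epithelial sheet of mesodermal origin that covers visceral organs and fat pads, carries keratins and microvilli, and bathes in serous fluid. Both are known to express Dpp4, which codes for dipeptidyl peptidase 4, a cell surface enzyme that trims the ends of peptide hormones and chemokines and that is widely used as a marker of interstitial progenitors in fat.

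The deposited values, called normalized counts here, are reads of a gene after division by a factor for each library. They are not divided by gene length, so levels were compared between libraries and not between genes. The libraries held 23.0 to 25.4 M reads in FIPs and 20.8 to 24.8 M in MLCs. The 23.0 M is that of FIPs replicate 1, whose depth is uncertain because its whole reads could not be told from the deposited values. After normalization the totals were 22.5 to 23.8 M in FIPs and 18.1 to 18.3 M in MLCs, and the 10 genes with the highest values took 17.7% to 18.7% of the total in FIPs and 10.2% to 10.9% in MLCs. The median SD of log2(value + 1) over the 4 libraries was 0.107 in FIPs and 0.0973 in MLCs.

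Of 27179 gene rows in the table, 1275 of them without a symbol, 14396 reached a normalized count of 10 in 4 or more of these 8 libraries and were tested with limma on log2(value + 1). A gene was called when its Benjamini-Hochberg adjusted p was under 0.05 and the difference, FIPs minus MLCs, was at least 1 on the log2 scale, or 2-fold. A gene was held within 2-fold when the 95% interval of that difference lay wholly between -1 and 1. By these rules 4490 genes, 31.2% of those tested, were called. Of them 1765 (12.3%) were higher and 2725 (18.9%) lower in FIPs, and 8856 (61.5%) were held within 2-fold. The remaining 1050 genes (7.29%) met neither rule. The median difference over all genes tested was -0.02 on the log2 scale. The counts of each gene list below are read against these shares. A gene almost absent from either population passes the filter only through the 4 libraries of the other, so its call largely follows from the filter. Examples below include Muc16, Isl1, Gata5, Aqp5, Cftr, Wnt7b and Fgf9, which passed through MLCs, and Efhd1, which passed through FIPs. A fold change below is 2 to the power of the log2 difference, and because of the added 1 it understates the change of genes with low values.

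The differences were large. At least 4-fold separated 908 genes higher in FIPs and 1537 lower in FIPs, and at least 64-fold separated 73 and 203 genes. Of the called genes, 1748 of the 1765 higher in FIPs and 2698 of the 2725 lower in FIPs had no overlap between the 4 FIPs and the 4 MLCs libraries. Calls of at least 2-fold leave little room for overlap when replicates are this close. The share without overlap over all genes tested is not given here, and held genes such as Bmp7 and Smpd3 had no overlap either. With all libraries scaled to the same total, the median difference of all genes shifted by -0.33 and the calls were 1346 higher and 3438 lower in FIPs. A shift of this size could not turn a gene called in one direction into one called in the other.

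**Figure D1:**
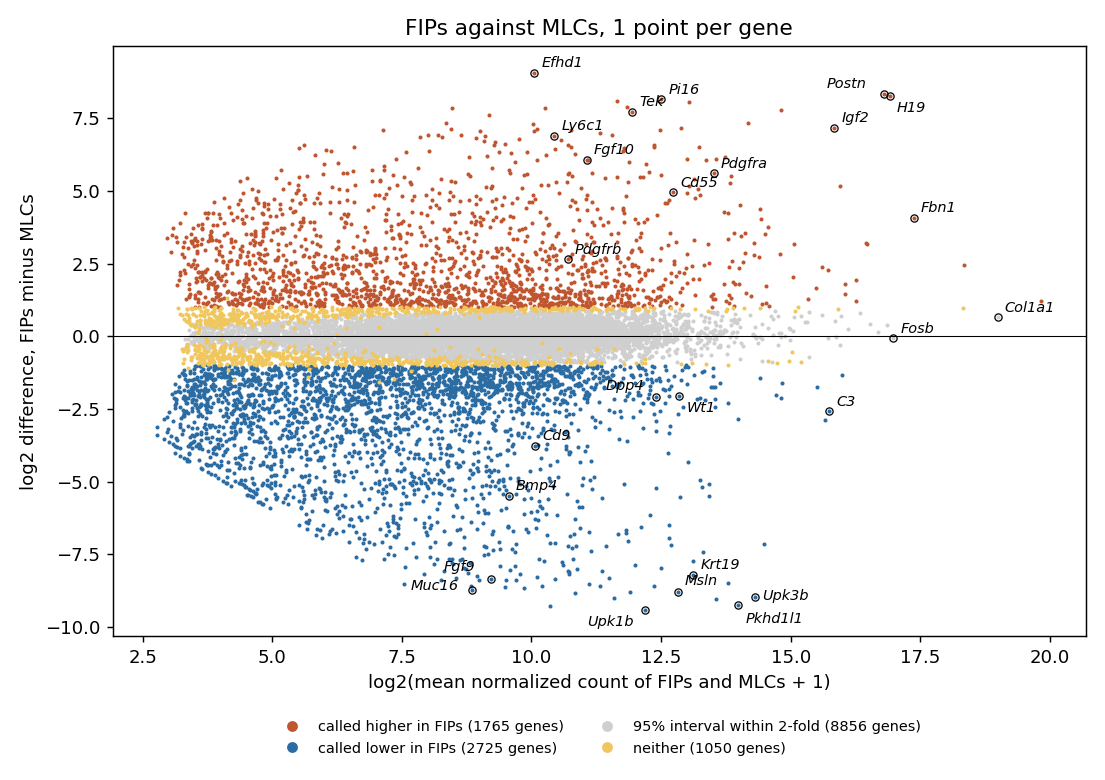
Each point is 1 of the 14396 genes tested, with the log2 mean normalized count of the 8 libraries on the x axis and the log2 difference, FIPs minus MLCs, on the y axis. Orange-red points are the 1765 genes called higher in FIPs, blue points the 2725 called lower, grey points the 8856 held within 2-fold and yellow points the other 1050, and ringed genes are named in the text.

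Markers listed for each population followed the MLCs label throughout and the FIPs label in part. These markers and the gene lists below were chosen with earlier results of these data known. They are thus no independent check of the labels. Of 7 mesothelial markers, Msln, Upk3b, Upk1b, Lrrn4, Krt19, Wt1 and Bnc1, all 7 were lower in FIPs. Of 7 interstitial progenitor markers 4 were higher in FIPs (Pi16, Cd55, Ly6c1 and Cd248), 1 was lower (Dpp4), Anxa3 was held within 2-fold, and Sema3c met neither rule, at a log2 difference of 0.95. Pdgfrb, the receptor for platelet-derived growth factor by which the parent cells were sorted, had 2678, 2758, 3131 and 2882 normalized counts in FIPs, against 452, 483, 472 and 419 in MLCs. The groups did not overlap, and Pdgfrb was 6.25-fold higher in FIPs (limma adjusted p = 4.5e-13). Its sister receptor Pdgfra, a general fibroblast marker, had 22787, 21767, 23189.8 and 24120.1 normalized counts in FIPs, against 462, 494, 515 and 412 in MLCs, a 48.8-fold difference. Cd9, coding for a tetraspanin, was at 146 ± 9.85 in FIPs and 2001 ± 124 in MLCs (SD, n = 4 each), 13.6-fold higher in MLCs. In sorted bulk samples fewer cells of a type and less RNA per cell cannot be told apart, here and in every difference below.

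The markers of the label were far apart. Pi16, coding for a secreted peptidase inhibitor (Entrez gene 74116; GRCm38 chr17:29318796-29328903), had 10929, 11465, 12530.1 and 11368 normalized counts in FIPs, against 40.2, 36.4, 44.3 and 38.7 in MLCs. All 4 FIPs libraries were above all 4 MLCs libraries, with a log2 difference of 8.15 ± 0.07 (SE) and an adjusted p of 1.3e-16. Cd55, coding for a membrane protein that disarms complement (chr1:130429798-130465009), had 13227, 12399, 13244 and 13533 in FIPs, against 412, 410.1, 443 and 426 in MLCs, 30.9-fold higher in FIPs. Ly6c1 was at 2759.9 ± 268 in FIPs and 23.4 ± 9.04 in MLCs, a value that may include reads of the near-identical Ly6c2. Msln, coding for mesothelin (Entrez gene 56047; chr17:25748613-25754378), had 29.7, 25.9, 34.4 and 35.4 normalized counts in FIPs, against 14463, 14030.3, 13878 and 15213 in MLCs. Its log2 difference was -8.81 ± 0.09 (adjusted p = 5.37e-16). Wt1, coding for a zinc finger factor of the mesothelium and its mesoderm, was not confined to MLCs. It had 2705, 2799, 2835 and 3180.4 in FIPs and 11659.9, 11669, 12067 and 12076 in MLCs, 4.13-fold higher in MLCs.

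Dpp4 was high in both populations and higher in MLCs. The gene (Entrez gene 13482; chr2:62330073-62412315, protein-coding) had 2139.9, 1645, 2219 and 2209 normalized counts in FIPs, against 9132, 8215, 8969.6 and 8905 in MLCs. Every MLCs library was above every FIPs library, and the difference was -2.11 ± 0.08 on the log2 scale (SE; adjusted p = 1.04e-10), 4.32-fold higher in MLCs. APCs averaged 52.6 ± 26.6 and SMCs 339.6 ± 86.3 (SD, n = 4 each), below all 8 libraries of FIPs and MLCs.

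A gene was taken as shared when the lowest of the 8 FIPs and MLCs values was at least 4 times the highest of the 8 APCs and SMCs values (1 added to each) and both FIPs and MLCs averaged at least 100. Only 3 genes met this rule, 0.0208% of the genes tested, and Dpp4 missed it with a ratio of 3.65. The 3 were Sfrp2, coding for a secreted protein that binds Wnt ligands, Bmp7, a bone morphogenetic protein, and Smpd3, coding for neutral sphingomyelinase 2, which makes ceramide at membranes. The rule chose them for their level against APCs and SMCs and did not use the difference between FIPs and MLCs. All 3 were held within 2-fold, as were 61.5% of all genes tested, so being held does not set them apart. Sfrp2 (Entrez gene 20319; chr3:83765750-83774314) had 6561, 6107, 8399 and 7031 normalized counts in FIPs, against 7873, 7119, 7316 and 7221 in MLCs. The groups overlapped and the 95% interval of the difference ran from -0.26 to 0.09 on the log2 scale. Bmp7 had 833, 941, 935 and 819 in FIPs, against 543, 536, 477 and 572 in MLCs, 1.66-fold higher in FIPs with no overlap (interval 0.58 to 0.88). Smpd3 had 6470.2, 6204, 7981 and 6037 in FIPs, against 9734, 9853, 8979.9 and 9523 in MLCs, 1.43-fold higher in MLCs (interval of the difference -0.69 to -0.36). At a ratio of 2 the rule gave 16 genes, 11 of them held within 2-fold, 3 called higher and 2, Dpp4 among them, called lower in FIPs. These shares were not far from those of all genes tested. At a ratio of 8 no gene was left.

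**Figure D2:**
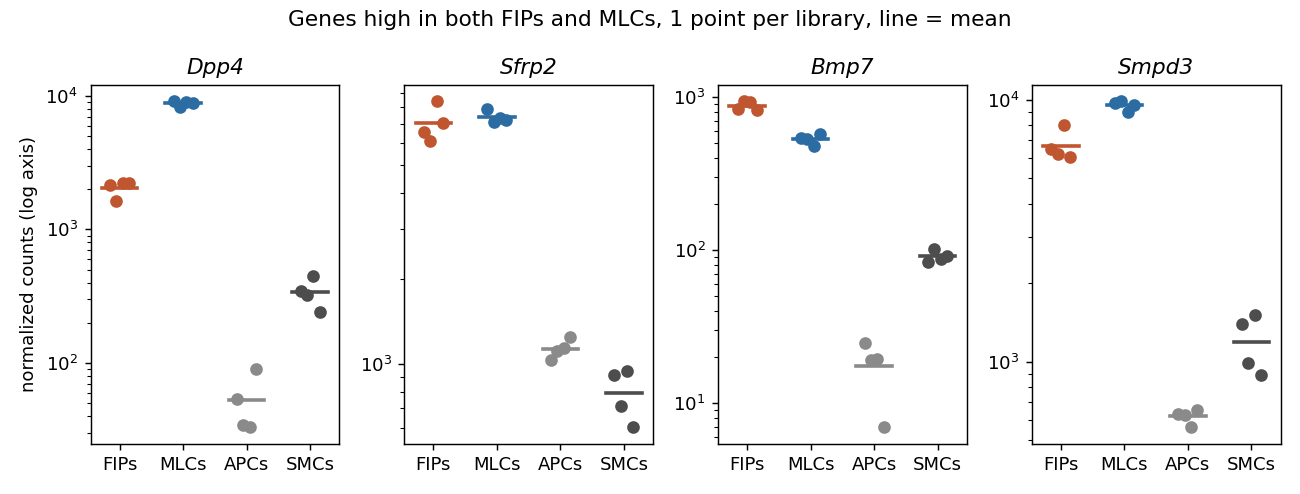
Normalized counts of Dpp4, Sfrp2, Bmp7 and Smpd3 on a log axis, with 1 point per library and a line at the mean of the 4 libraries of each population. In every panel the FIPs and MLCs points lie above the APCs and SMCs points, and Dpp4 sits higher in MLCs (8215 to 9132) than in FIPs (1645 to 2219).

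The promoters of Dpp4 and Sfrp2 are printed as the start regions of genes high in both populations, and those of Aspn, Upk3b and Lrrn4 as start regions of genes that part them. Each window runs from 250 bases before to 50 bases after a transcript start in RefSeq (GRCm38.p6). That start can lie inside the outer bounds of the gene given above, as it does for Dpp4 and Sfrp2. Windows are written 5′ to 3′ on the gene's strand. Capitals mark matches, on either strand, to 5 short motifs: the TEAD core GGAATG, the GATA core AGATAA, the WT1 and EGR core GTGGGNG, the AP-1 site TGANTCA and the TATA box TATAAA. No 2 matches overlap in these windows.
Dpp4 (chr2:62412182-62412481, minus strand): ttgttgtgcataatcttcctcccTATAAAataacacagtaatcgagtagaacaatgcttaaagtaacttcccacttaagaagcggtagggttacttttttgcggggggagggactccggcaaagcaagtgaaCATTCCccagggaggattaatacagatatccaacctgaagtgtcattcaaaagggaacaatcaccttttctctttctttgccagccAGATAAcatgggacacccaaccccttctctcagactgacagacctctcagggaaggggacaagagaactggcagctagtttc
Sfrp2 (chr3:83766071-83766370, plus strand): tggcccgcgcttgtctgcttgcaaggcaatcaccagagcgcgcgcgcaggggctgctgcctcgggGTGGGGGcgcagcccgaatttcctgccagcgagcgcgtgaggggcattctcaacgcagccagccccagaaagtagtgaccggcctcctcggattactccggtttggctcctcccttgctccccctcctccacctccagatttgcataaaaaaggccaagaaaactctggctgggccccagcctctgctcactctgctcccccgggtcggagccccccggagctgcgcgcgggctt
Aspn (chr13:49544193-49544492, plus strand): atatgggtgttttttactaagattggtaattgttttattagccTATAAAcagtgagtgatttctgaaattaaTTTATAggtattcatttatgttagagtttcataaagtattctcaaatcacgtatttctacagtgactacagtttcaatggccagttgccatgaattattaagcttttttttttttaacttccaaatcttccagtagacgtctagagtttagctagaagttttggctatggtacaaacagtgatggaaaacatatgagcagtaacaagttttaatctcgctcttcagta
Upk3b (chr5:136038246-136038545, plus strand): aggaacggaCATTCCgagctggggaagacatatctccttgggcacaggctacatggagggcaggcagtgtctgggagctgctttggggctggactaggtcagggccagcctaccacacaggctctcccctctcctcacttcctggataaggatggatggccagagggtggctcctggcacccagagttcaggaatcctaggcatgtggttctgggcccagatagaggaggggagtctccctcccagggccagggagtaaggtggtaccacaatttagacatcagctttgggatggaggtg
Lrrn4 (chr2:132880813-132881112, minus strand): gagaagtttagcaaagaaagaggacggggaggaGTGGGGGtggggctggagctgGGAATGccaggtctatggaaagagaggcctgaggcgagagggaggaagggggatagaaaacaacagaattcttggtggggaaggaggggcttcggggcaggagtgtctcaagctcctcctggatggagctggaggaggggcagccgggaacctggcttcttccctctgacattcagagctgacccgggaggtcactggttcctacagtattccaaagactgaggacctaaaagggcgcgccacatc
The Dpp4 window held a TATA box, a TEAD core and a GATA core, and that of Sfrp2 a single WT1 and EGR core. Of the 14396 genes tested 11048 had such a window, and 12.3% of these held the TEAD core, 6.91% the TATA box, 6.16% the GATA core, 4.92% the AP-1 site and 39.1% the WT1 and EGR core. Among the 12 genes with the largest rise in FIPs, 11 had a window, of which 3 (Aspn, Lrrc17 and Dpt) held a TATA box and 0 a TEAD core. Among the 12 with the largest fall 9 had a window, of which 3 (Upk3b, Lrrn4 and Il17re) held a TEAD core and 0 a TATA box. Over all called genes the shares were close to each other, with a TEAD core in 13.6% of those higher and 13.8% of those lower in FIPs. A match of letters is a description of the window and shows no binding. Matches were counted anywhere in the window, so TATA box here names only the letters TATAAA and not a position. In Dpp4 and Aspn these letters lie toward the upstream end of the window.

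Of the genes held within 2-fold, 10 are named by their normalized counts, which grow with gene length and so do not rank expression. They were Col1a1, Hspg2, Fosb, Fos, Egr1, Sparc, Col6a2, Jun, Col14a1 and Ahnak. Col1a1, coding for the main chain of collagen I (Entrez gene 12842; chr11:94936224-94953042), had 623538, 643993, 678974 and 602259 normalized counts in FIPs, against 428854, 393126, 396026 and 399059 in MLCs. The groups did not overlap, and Col1a1 was 1.58-fold higher in FIPs with an interval of 0.41 to 0.91 on the log2 scale. Sparc, coding for a collagen-binding matricellular protein, was at 110288 ± 9003 in FIPs and 100238 ± 1810.1 in MLCs, with overlapping groups. Fosb, coding for a subunit of the AP-1 transcription factor, had 120258, 133142, 126182 and 121637 in FIPs, against 124244, 133767, 135113 and 136334 in MLCs. Those groups overlapped too, and the difference was -0.08 (interval -0.24 to 0.08), but with quantile normalization it was -1.28 and called, as it was for Ahnak (-1.07, against -0.29). Fos, Egr1 and Jun, other immediate early genes, were 1.29-fold, 1.33-fold and 1.19-fold higher in FIPs.

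The list of 30 immediate early and dissociation stress genes, which cells switch on during tissue digestion and sorting, had 17 members held within 2-fold, 6 higher and 6 lower in FIPs, with a median difference of 0.29. Socs3, a feedback inhibitor of cytokine signalling, was 5.22-fold higher in FIPs. The orphan nuclear receptor genes Nr4a2 and Nr4a3 were 21.6-fold and 7.03-fold higher in MLCs, and Fosl1, coding for another AP-1 subunit, 15.5-fold higher in MLCs. Hox genes code for factors that mark position along the body axis. Of 25 tested 15 were held, a share close to that of all genes, 5 were higher in FIPs (Hoxb2, Hoxb3, Hoxb4, Hoxb5 and Hoxb7) and 2 were lower (Hoxd3 and Hoxd4). Hoxb4 had 299, 274, 317 and 301 normalized counts in FIPs, against 76.2, 58.4, 61.2 and 77.5 in MLCs. Hoxd4 had 42.5, 41.6, 25.8 and 37.2 in FIPs, against 197, 175, 178 and 198 in MLCs. Neither gene's groups overlapped, and the differences were 2.12 ± 0.11 and -2.34 ± 0.15 (log2, SE).

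The 12 largest rises in FIPs, by the size of the difference, were Efhd1, Postn, H19, Pi16, Lrrc17, Aspn, Galnt16, Ackr2, Scg3, Dpt, Tek and Efcc1. Their differences ran from 9.06 down to 7.59 on the log2 scale. These rises and the largest falls below were taken only from called genes without overlap between FIPs and MLCs libraries. A mean of at least 100 in the higher population was also asked, and predicted symbols were left out. Their lack of overlap thus follows from the choice. Efhd1, coding for a calcium-binding protein of mitochondria (Entrez gene 98363; chr1:87264353-87310841), had 2065, 2065, 2417 and 1922 normalized counts in FIPs, against 3.35, 2.54, 7.38 and 0.880 in MLCs. Postn, coding for the matricellular protein periostin (Entrez gene 50706; chr3:54359267-54391041), had 230649.5, 202669.8, 245182 and 234796 in FIPs, against 664, 839.7, 733 and 599.5 in MLCs, a log2 difference of 8.34 ± 0.09 (adjusted p = 1.26e-15). FIPs and MLCs libraries were apart by more than 2 orders of magnitude for both genes.

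Aspn and Dpt code for asporin and dermatopontin, which bind collagen. Aspn was at 16779 ± 1914 in FIPs and 63.0 ± 16.9 in MLCs, and Dpt at 57438 ± 5109 in FIPs and 258 ± 40.1 in MLCs. Tek, coding for the angiopoietin receptor TIE2, had 7579, 7412, 8276 and 8042 in FIPs, against 33.5, 29.6, 35.4 and 48.4 in MLCs. Tek is known best from endothelium. Pecam1, Cdh5 and Emcn, which define endothelial cells, had at most 123, 122 and 17.8 in FIPs, against at most 161, 188 and 26.0 in MLCs, and the part of endothelial cells in the Tek values was not tested. Ackr2, coding for a receptor that scavenges inflammatory chemokines, was at 708 ± 99.8 in FIPs and 2.05 ± 0.403 in MLCs. Galnt16, coding for an enzyme that starts O-glycosylation, was at 7299 ± 690.1 in FIPs and 30.1 ± 6.06 in MLCs.

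The 12 largest falls in FIPs were Upk1b, Chst4, Pkhd1l1, Lrrn4, Tmem151a, Upk3b, Slpi, Krt7, Msln, Muc16, Sorcs1 and Il17re, with differences from -9.41 to -8.62. Upk1b, coding for a uroplakin of the tetraspanin family (Entrez gene 22268; chr16:38773182-38800203), had 14.8, 6.47, 12.4 and 21.8 normalized counts in FIPs, against 9366, 9429.9, 9448 and 9198 in MLCs. Upk3b, coding for another uroplakin (Entrez gene 100647; chr5:136038496-136044993), had 73.2, 64.7, 91.7 and 94.3 in FIPs, against 39960.4, 41414, 40503 and 40328 in MLCs, a log2 difference of -8.97 ± 0.10 (adjusted p = 1.2e-15). Both genes were chosen among those without overlap, so the separation of their libraries follows from the choice.

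Muc16, coding for the mucin CA125 that binds mesothelin, had 0.989, 2.77, 0 and 1.81 in FIPs, against 980.2, 891, 942 and 876 in MLCs. Slpi, coding for a secreted inhibitor of leukocyte proteases, was at 7.47 ± 3.01 in FIPs and 3666 ± 73.1 in MLCs. Chst4, coding for a sulfotransferase of glycoproteins, was at 3.57 ± 1.99 in FIPs and 2624 ± 243 in MLCs. Il17re, coding for the receptor of the epithelial cytokine IL-17C, was at 3.02 ± 1.97 in FIPs and 1434 ± 14.4 in MLCs.

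**Figure D3:**
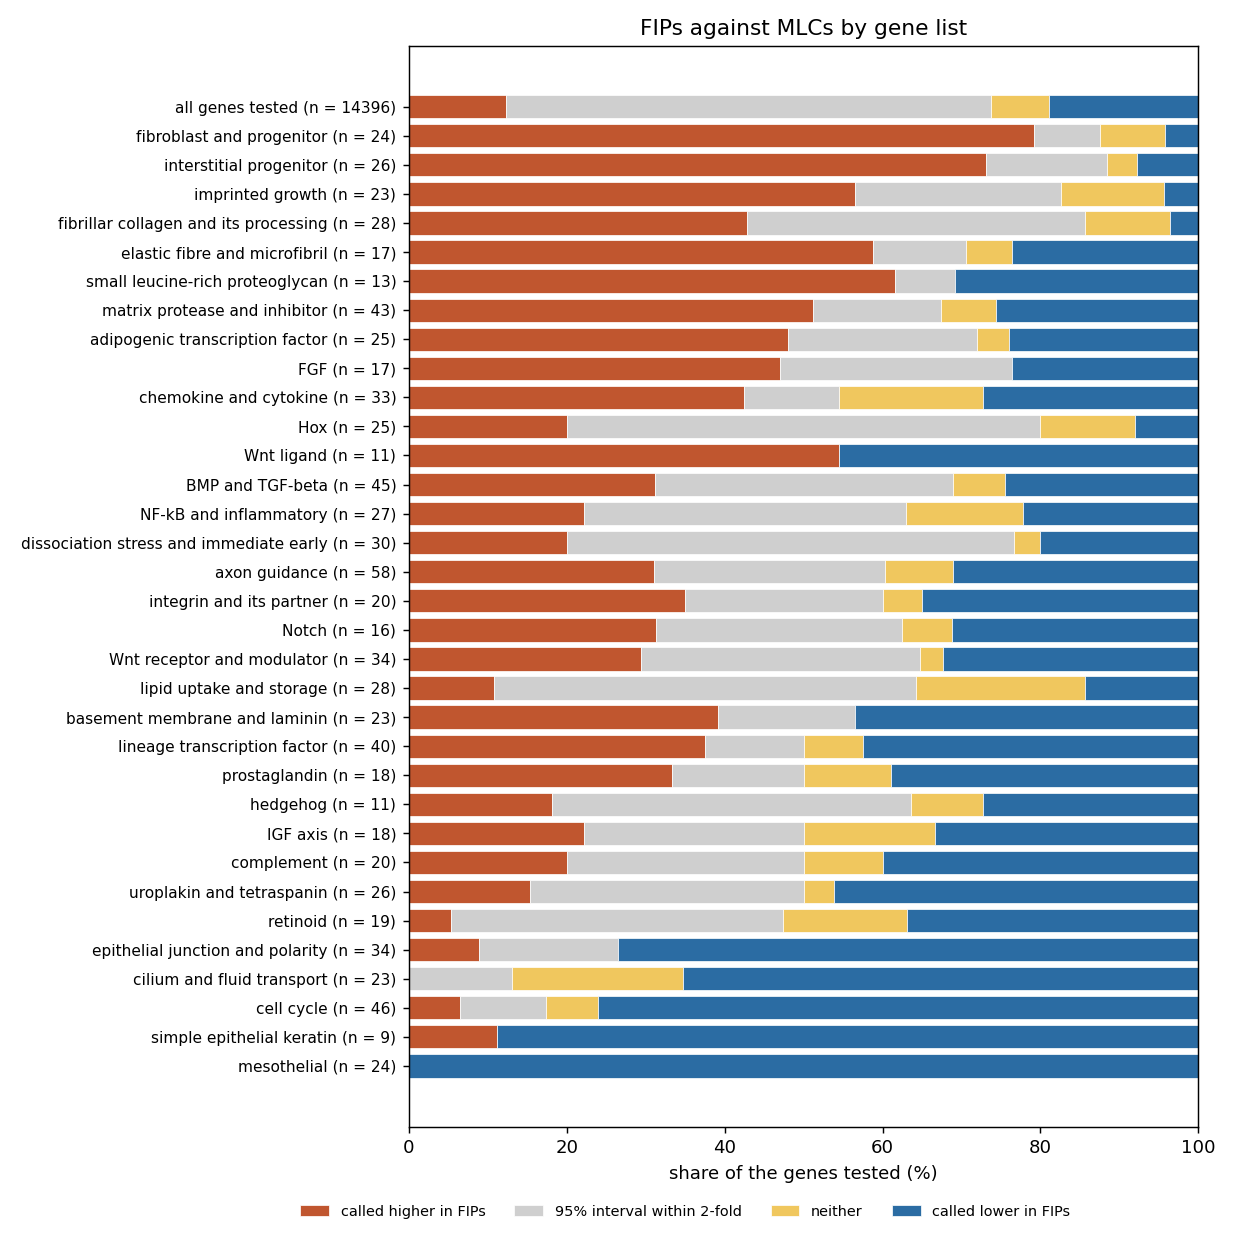
Share of the tested genes of each list called higher in FIPs (orange), held within 2-fold (grey), meeting neither rule (yellow) and called lower in FIPs (blue), with the number tested in brackets and all 14396 genes in the top bar. The fibroblast and interstitial progenitor lists lie at the orange end, and the mesothelial, keratin, cell cycle and junction lists at the blue end.

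Interstitial progenitor and fibroblast genes were for the most part higher in FIPs. Of 26 interstitial progenitor genes 19 were higher and 2 lower (Dpp4 and Procr), 4 were held, and the median difference was 2.66. Mfap5, coding for a microfibril protein, was at 25608 ± 1751 in FIPs and 1320.4 ± 53.5 in MLCs. Akr1c18, coding for an enzyme that inactivates progesterone, was at 277 ± 28.7 in FIPs and 1.04 ± 0.440 in MLCs. Il33, coding for an alarmin cytokine, was held at a difference of -0.70, and was called lower in FIPs (-1.03) with equal totals. Of 24 fibroblast and progenitor genes 19 were higher and 1 lower, with a median of 3.05. Lum, coding for the collagen-binding lumican, was 161-fold higher in FIPs, and Twist1, a mesenchymal transcription factor, was held with a difference of 0.39. Fbln1, coding for fibulin 1, was the exception, 2.35-fold higher in MLCs.

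The mesothelial list was lower in FIPs in all 24 genes tested, with a median difference of -8.35, and Calb2, coding for calretinin, was under the filter. The summed level of the list was 17918 to 21801 in FIPs and 342909 to 354152 in MLCs. Of 9 keratins tested 8 were lower in FIPs. Krt18, a keratin of simple epithelia, had 8.90, 8.32, 2.86 and 12.7 normalized counts in FIPs, against 1225, 1313, 1297 and 1530.0 in MLCs. Krt20 went the other way, at 49.5 ± 5.92 in FIPs and 4.56 ± 2.68 in MLCs. Of 34 genes of epithelial junctions and polarity 25 were lower and 3 higher in FIPs, with a median of -3.27. Cgn, coding for cingulin of tight junctions, was at 7.73 ± 2.23 in FIPs and 2795 ± 179.7 in MLCs. Crb2, coding for an apical polarity protein, was at 11.9 ± 3.86 in FIPs and 3329 ± 42.1 in MLCs. Cdh3, coding for P-cadherin, was at 5.23 ± 2.68 in FIPs and 1532 ± 51.4 in MLCs. Rdx, coding for the membrane linker radixin, was held, at 4606 ± 99.5 in FIPs and 4573 ± 199 in MLCs.

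The called genes of cilia and fluid transport were lower in FIPs, and uroplakins and tetraspanins were mixed. Of 23 genes of cilia and fluid transport 15 were lower in FIPs, 0 were higher and 3 were held, and 9 were called with a filter of 50, which tests fewer genes. Aqp5, coding for a water channel, had 0, 0.925, 1.91 and 0.907 normalized counts in FIPs, against 594, 635, 594 and 614 in MLCs. Cftr, coding for a chloride channel of secretory epithelia, had 0, 0.925, 1.91 and 3.63 in FIPs, against 513, 435, 418 and 378 in MLCs. Slc9a3r1, coding for a scaffold that anchors such transporters to ezrin, was 71.5-fold higher in MLCs. Of 26 uroplakins and tetraspanins 12 were lower, 4 higher and 9 held. Cd82 was at 40.9 ± 8.82 in FIPs and 4362 ± 166 in MLCs, while Cd81 was held, at 7664 ± 608 in FIPs and 8518 ± 62.1 in MLCs.

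Matrix genes were called in both directions, in unequal numbers. Of 28 genes of fibrillar collagens and their processing 12 were higher and 1 lower in FIPs and 12 were held, with a median of 0.76. Col5a3, coding for a chain of collagen V, was 9.09-fold higher in FIPs, and Adamts14, coding for a procollagen peptidase, 45.1-fold. Serpinh1, coding for the collagen chaperone HSP47, had 30659, 28974, 32561 and 28875 in FIPs and 28598, 31314, 30386 and 30571 in MLCs, with overlapping groups and an interval of -0.12 to 0.12. Of 23 basement membrane genes 9 were higher and 10 lower in FIPs. Col4a1 and Lama2, which code for chains of collagen IV and of laminin, were 16.5-fold and 11.8-fold higher in FIPs. Lama5, Lama3 and Lamc3, which code for other laminin chains, were 59.0-fold, 93.8-fold and 99.3-fold higher in MLCs. Agrn, coding for the proteoglycan agrin, was 9.70-fold higher in MLCs.

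The small proteoglycans and elastic fibres also divided. Of 13 small leucine-rich proteoglycans 8 were higher and 4 lower in FIPs. Fmod, coding for fibromodulin, had 61.3, 75.8, 98.3 and 101 normalized counts in FIPs, against 18978, 17349, 17366 and 16899.6 in MLCs, 211-fold higher in MLCs, opposite to Lum and Aspn of the same family. Of 17 elastic fibre genes 10 were higher and 4 lower. Fbn1, coding for fibrillin 1, was at 320100.0 ± 10120.2 in FIPs and 19039 ± 338 in MLCs, and Ltbp1, which tethers latent TGF-beta to fibrillin, at 16360.0 ± 1146 in FIPs and 451 ± 17.7 in MLCs. Eln, coding for elastin itself, had 33630.0, 33047, 41172 and 39264 in FIPs, against 96330.2, 89687, 90914 and 93609 in MLCs, 2.53-fold higher in MLCs.

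Receptors for matrix and the enzymes that cut it were also called in both directions. Of 20 integrins and partners 7 were higher, 7 lower and 5 held. Itga11, coding for a collagen receptor chain, was at 3443 ± 114 in FIPs and 24.6 ± 4.58 in MLCs. Itga3, coding for a laminin receptor chain, was at 18.6 ± 4.13 in FIPs and 5230.4 ± 173 in MLCs. Itgb1, the beta chain that both pair with, was held, at a log2 difference of 0.49. Of 43 matrix proteases and inhibitors 22 were higher and 11 lower in FIPs. Mmp2, coding for gelatinase A, was 66.1-fold and Adam12, coding for a membrane metalloprotease, 91.4-fold higher in FIPs. Mmp24, coding for a membrane-type matrix metalloprotease, was at 2.63 ± 1.27 in FIPs and 294 ± 26.0 in MLCs.

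Lineage transcription factors went both ways. Of 40 lineage transcription factors 15 were higher and 17 lower in FIPs and 5 were held. Tcf21 and Nr2f1, mesenchymal factors, were 47.6-fold and 45.8-fold higher in FIPs, and Sox9, a factor of cartilage and progenitors, 23.1-fold. Isl1, a LIM homeodomain factor, had 1.98, 1.85, 0 and 2.72 normalized counts in FIPs, against 1013, 882, 895 and 867 in MLCs. Gata5, coding for a GATA factor of heart and viscera, had 0, 0.925, 1.91 and 4.53 in FIPs, against 724, 718, 756 and 783 in MLCs. Sox6 and Bnc1 were 292-fold and 366-fold higher in MLCs. Nr2f2, Twist1 and Klf4 were held within 2-fold.

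Of 25 adipogenic transcription factors 12 were higher and 6 lower, with a median of 0.68. Ebf2 and Ebf1, early factors of adipose commitment, were 127-fold and 81.2-fold higher in FIPs. Pparg, the master factor of fat cell formation, had 441, 386, 444 and 503 normalized counts in FIPs, against 38.5, 43.1, 45.0 and 31.7 in MLCs, a log2 difference of 3.46 ± 0.12 (SE). Gata3 and Klf5 were higher in MLCs, Klf5 at 55.6 ± 8.53 in FIPs and 518 ± 28.7 in MLCs. Of 28 genes of lipid uptake and storage 3 were higher, 4 lower and 15 held, shares close to those of all genes. With equal totals 12 of them were called. Lpl, coding for lipoprotein lipase, had 29757, 27110.2, 22932 and 36089 in FIPs, against 602, 775, 691 and 471 in MLCs, 45.7-fold higher in FIPs. Fasn, coding for fatty acid synthase, was held, at 5868 ± 566 in FIPs and 4873 ± 69.7 in MLCs. Adipoq, the adiponectin gene of mature fat cells, was low in both, at 12.5 ± 3.19 in FIPs and 35.0 ± 4.70 in MLCs, and its call was lost with quantile normalization (-0.90, against -1.44).

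Many ligand genes of the Wnt, BMP and FGF families differed in level between the populations, in both directions. Of 19 Wnt ligands listed 11 passed the filter, and all 11 were called, 6 higher and 5 lower in FIPs. Some, such as Wnt7b, passed through MLCs alone, so the full share called partly follows from the filter. Wnt10b, a canonical ligand that restrains fat cell formation, had 551, 662, 617 and 553 normalized counts in FIPs, against 8.38, 10.99, 15.5 and 20.2 in MLCs. Wnt4, a ligand of gonad and kidney development, had 25.7, 42.5, 34.4 and 33.6 in FIPs, against 768, 682, 732 and 661 in MLCs. Neither gene's groups overlapped, and the fold differences were 42.2 for Wnt10b (higher in FIPs) and 20.6 for Wnt4 (higher in MLCs). Wnt5a and Wnt11, mainly non-canonical ligands, were 4.68-fold and 7.46-fold higher in FIPs, and Wnt9a 5.14-fold higher in MLCs. Wnt7b was at 1.39 ± 1.18 in FIPs and 148 ± 19.5 in MLCs. Of 34 Wnt receptors and modulators 10 were higher, 11 lower and 12 held. Sfrp1, a relative of the shared Sfrp2, was 25.4-fold higher in FIPs, Dkk2 28.6-fold and Rspo3, coding for an amplifier of Wnt signals, 18.5-fold. Dkk3 was 14.1-fold and the receptor gene Fzd6 9.53-fold higher in MLCs.

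Of 45 genes of BMP and TGF-beta signalling 14 were higher, 11 lower and 17 held. Gdf10, a TGF-beta family ligand, had 5967, 6312, 6569 and 6149 normalized counts in FIPs, against 122, 171, 148 and 121 in MLCs, 44.7-fold higher in FIPs. Bmp4, a ligand, had 32.6, 26.8, 27.7 and 42.6 in FIPs, against 1468, 1411, 1443 and 1568 in MLCs, 44.8-fold higher in MLCs. The 2 ligand genes differed by about the same factor in opposite directions, with no overlap, while Bmp7 was shared. The coreceptor gene Eng was 30.7-fold higher in FIPs, and the receptor gene Bmpr1b 9.89-fold higher in MLCs. The TGF-beta receptor genes Tgfbr2 and Tgfbr3 were held, 1.68-fold and 1.56-fold higher in FIPs.

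Of 17 FGF genes 8 were higher, 4 lower and 5 held. Fgf10, a mesenchymal ligand that acts on epithelia through FGFR2, had 4234, 3909.7, 4332 and 4407 normalized counts in FIPs, against 54.5, 65.1, 80.4 and 51.1 in MLCs. Fgf9, a ligand that mesothelium is known to send to the mesenchyme of the lung, had 3.96, 0.925, 1.91 and 5.44 in FIPs, against 1359, 1187, 1134 and 1072 in MLCs. Both genes had separate groups, with log2 differences of 6.07 ± 0.12 for Fgf10 and -8.34 ± 0.30 for Fgf9 (SE). Fgf9 passed the filter through MLCs alone, so its call and separation largely follow from the filter. Fgf1 was 10.2-fold and Fgfr3 20.4-fold higher in MLCs, and Fgfr1 4.16-fold higher in FIPs.

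**Figure D4:**
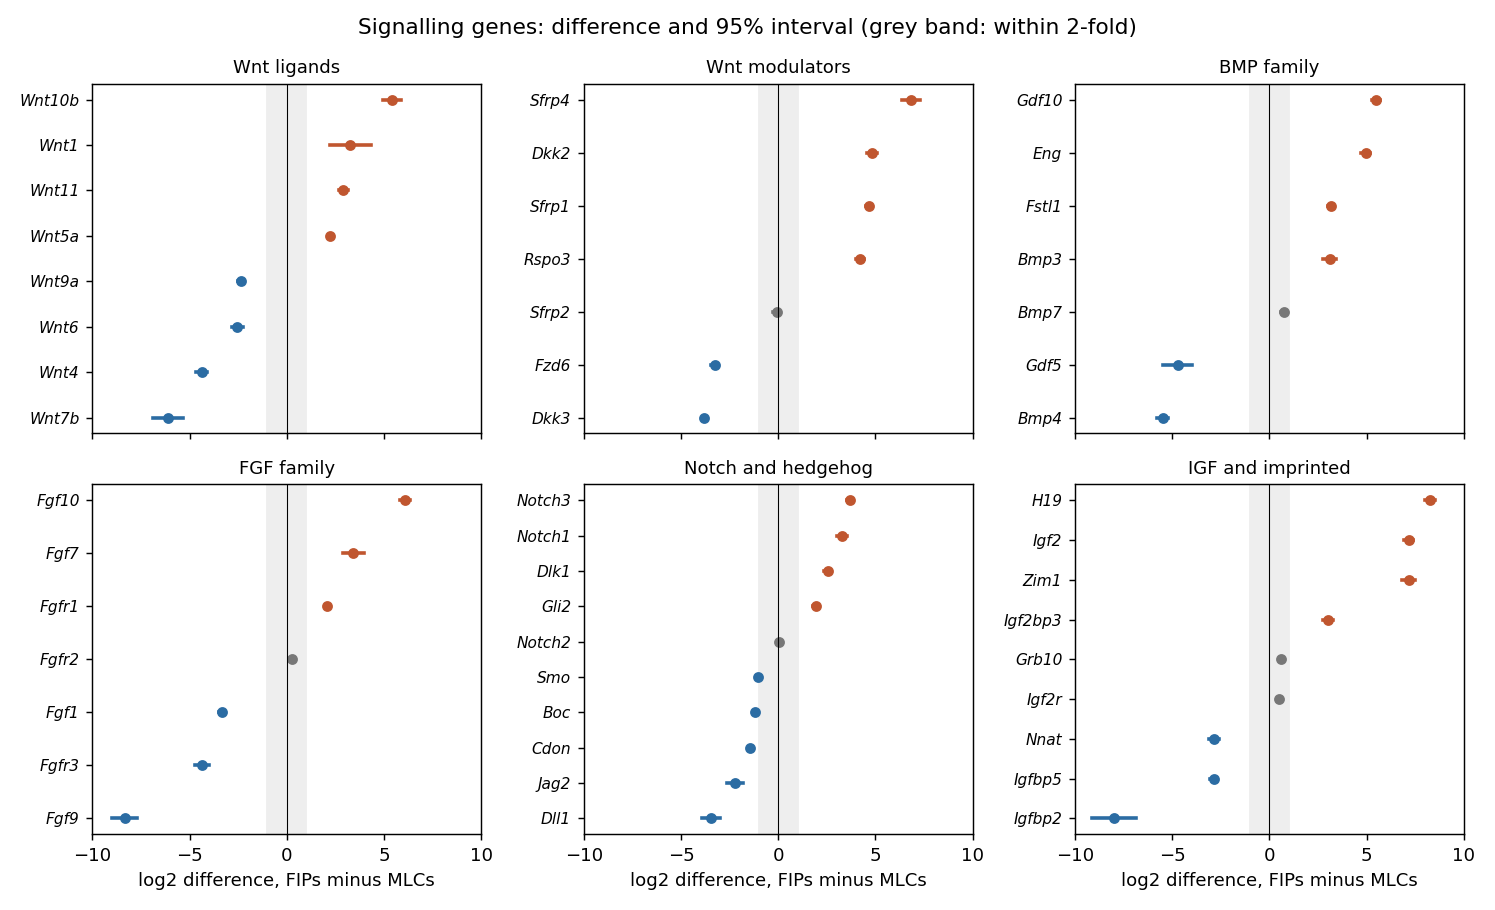
Log2 difference, FIPs minus MLCs, of named signalling genes with its 95% interval as a bar; orange is called higher in FIPs, blue called lower, grey not called, and the grey band marks differences within 2-fold. Each family has members on both sides, such as Wnt10b (5.40) and Wnt7b (-6.11), Gdf10 (5.48) and Bmp4 (-5.48), and Fgf10 (6.07) and Fgf9 (-8.34).

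Hedgehog and Notch genes were also called in both directions. Of 11 hedgehog genes 2 were higher, 3 lower and 5 held. Gli2, coding for a transcription factor of the pathway, was 3.79-fold higher in FIPs. Smo, the signal transducer, and the coreceptor genes Boc and Cdon were 2.06-fold, 2.26-fold and 2.74-fold higher in MLCs. Gas1, another coreceptor gene, was held at -0.87, and was called lower in FIPs with equal totals (-1.21) and with quantile normalization (-1.40). Of 16 Notch genes 5 were higher, 5 lower and 5 held. The receptor genes Notch1 and Notch3 were 9.69-fold and 13.1-fold higher in FIPs, Notch2 was held at 6083 ± 283 in FIPs and 5991 ± 174 in MLCs, and the ligand genes Dll1 and Jag2 were 10.9-fold and 4.67-fold higher in MLCs.

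Imprinted genes, which are expressed from 1 parental allele and include many regulators of growth, stood higher in FIPs. Of 23 tested 13 were higher, 1 lower (Nnat) and 6 held, with a median of 1.29. H19, an imprinted noncoding RNA (Entrez gene 14955; chr7:142575530-142578146), had 239777, 235583, 253414 and 250255 normalized counts in FIPs, against 715, 1085, 732 and 695 in MLCs. Its neighbour Igf2, coding for insulin-like growth factor 2, had 111099, 112068, 124968 and 117812 in FIPs, against 699, 1067, 725 and 791 in MLCs. For both genes the groups were far apart, 308-fold for H19 and 144-fold for Igf2. Cdkn1c, coding for a growth-restraining inhibitor of cell cycle kinases, was 8.72-fold higher in FIPs, while Meg3, Gnas, Grb10 and Igf2r were held between 1.41-fold and 1.84-fold higher in FIPs. In the list of 18 IGF genes 4 were higher and 6 lower in FIPs, and the members that were lower included binding proteins. Igfbp2 had 48.5, 8.32, 3.82 and 19.04 in FIPs, against 3192, 3665, 3982 and 4127 in MLCs. Igfbp5 was 7.33-fold, Igfbp6 4.94-fold and Igfbp4 3.03-fold higher in MLCs, and the receptor gene Igf1r was held.

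Axon guidance genes were split evenly, 18 higher, 18 lower and 17 held of 58, with a median of 0.07. Robo1 and Robo2, receptors for Slit proteins, were 14.9-fold and 15.1-fold higher in FIPs. Plxna4, coding for a semaphorin coreceptor, was at 69.9 ± 6.74 in FIPs and 7138 ± 344 in MLCs, and Epha2, coding for an ephrin receptor of epithelia, at 39.6 ± 6.38 in FIPs and 3899.8 ± 219 in MLCs.

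Inflammatory genes were high in each population, in part the same ones and in part different ones. Of 33 chemokine and cytokine genes 14 were higher, 9 lower and 4 held, with a median of 0.82. Il6, coding for interleukin 6, had 4618, 4208, 4265 and 4991 normalized counts in FIPs, against 89.6, 87.1, 87.0 and 104 in MLCs. Ccl11, coding for the eosinophil attractant eotaxin, had 1982, 1672, 2468 and 2259.9 in FIPs, against 13.4, 10.99, 19.9 and 15.8 in MLCs. Il18, coding for a cytokine of the inflammasome, had 39.6, 42.5, 47.7 and 37.2 in FIPs, against 889, 889, 953 and 845 in MLCs. The libraries of FIPs and MLCs did not overlap for any of these 3 genes. Cxcl14 and Il7 were 19.5-fold and 15.8-fold higher in MLCs, and Il6st, coding for the signalling chain of the IL-6 receptor, was held.

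Of 27 NF-kB and inflammatory genes 6 were higher, 6 lower and 11 held. Tnfaip6, coding for a hyaluronan-binding protein induced by TNF, was 71.5-fold higher in FIPs, and Nfkbid, coding for an atypical NF-kB inhibitor, 102-fold higher in MLCs. Tlr2, coding for a receptor for bacterial lipoproteins, was 3.83-fold higher in MLCs. Rela, Nfkbia and Tnfaip3, which code for an NF-kB subunit and feedback inhibitors, were held. Of 20 complement genes 4 were higher and 8 lower in FIPs. C3, the central component, had 13355, 16209, 15827 and 17145 in FIPs, against 91973, 97572, 92669.9 and 92255 in MLCs, 6.01-fold higher in MLCs. C2 was 31.0-fold and Cfb, coding for factor B, 7.71-fold higher in MLCs, and Clu, coding for the complement-binding chaperone clusterin, 133-fold. C2 and Cfb are neighbours on chromosome 17.

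Prostaglandin and retinoid enzymes were divided by gene. Of 18 prostaglandin genes 6 were higher and 7 lower in FIPs. Ptges, coding for the inducible synthase of prostaglandin E2, and Ptger4, coding for one of its receptors, were 13.0-fold and 8.73-fold higher in FIPs. Ptger3, coding for another receptor of it, and Ptgs1, coding for cyclooxygenase 1, were 42.8-fold and 4.96-fold higher in MLCs. Of 19 retinoid genes 1 was higher, 7 lower and 8 held. The 1 was Aldh1a3, coding for a retinaldehyde dehydrogenase that makes retinoic acid, with 3003, 2818, 3827 and 3587 normalized counts in FIPs, against 29.3, 33.0, 38.4 and 33.5 in MLCs. Aldh1a2, coding for a second enzyme of this step, had 54.4, 40.7, 64.0 and 69.8 in FIPs, against 6619, 6453, 6309.9 and 6412 in MLCs. The groups were apart in both, 95.5-fold higher in FIPs for Aldh1a3 and 113-fold higher in MLCs for Aldh1a2.

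Cell cycle genes were lower in FIPs. Of 46 tested 35 were lower, 3 higher and 5 held, with a median of -1.60. Mki67, coding for the proliferation marker Ki-67, had 2292, 2115, 2057 and 1902 normalized counts in FIPs, against 10479, 9887, 11000.1 and 9323 in MLCs, 4.86-fold higher in MLCs. Cenpf and Cdc20, which act in mitosis, were 5.64-fold and 5.11-fold higher in MLCs. Cdk6, coding for a kinase of the G1 phase, was at 20.4 ± 4.83 in FIPs and 560.1 ± 19.4 in MLCs. The 3 higher in FIPs were Cdkn1c and the cyclin genes Ccnd2 (2.47-fold) and Ccnd3 (2.09-fold), and both cyclin genes fell under 2-fold with equal totals.

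Markers of other cell types that a PDGFRb+ sort could hold were measured beside these results, and their part in them was not tested. Of 15 contractile genes 9 were lower and 2 higher in FIPs, and the summed level was 11579 to 12564 in FIPs and 24750 to 25497 in MLCs. Acta2, coding for smooth muscle actin, was 5.97-fold higher in MLCs, and Myh11, coding for smooth muscle myosin, was at 41.3 ± 11.1 in FIPs and 1288 ± 79.9 in MLCs. Of 11 pericyte genes 3 were higher and 4 lower, with sums of 3546 to 3860 in FIPs and 4439 to 4838 in MLCs, and Rgs5, which defines pericytes, was between 13.9 and 28.6 in FIPs and between 11.8 and 39.4 in MLCs. Of 11 endothelial genes 1 was higher (Tek) and 3 lower (Kdr, Esam and Egfl7), and the sums were 7988 to 8901 in FIPs and 4907 to 5918 in MLCs. The call of Egfl7 (-1.12) was lost in several settings. Its difference was -0.69 without replicate 4 of both populations and -0.60 with quantile normalization. With an added constant of 8 it was -0.92, and with edgeR -0.98.

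Of 13 macrophage and myeloid genes 5 were tested and 3 were lower in FIPs, with sums over the list of 568 to 895 in FIPs and 2593 to 3170 in MLCs. Csf1r, coding for the receptor of colony-stimulating factor 1, carried most of this, with 26.7, 34.2, 28.6 and 19.04 in FIPs, against 2108, 2271, 2014 and 2449 in MLCs. Ptprc and Adgre1, which define leukocytes and macrophages, were at most 9.55 and 7.91 in FIPs, against at most 11.4 and 10.6 in MLCs. Of 8 Schwann cell genes 5 were tested, of which 1 was higher, 1 lower and 2 held. S100b, coding for a calcium-binding protein, was at 117 ± 12.7 in FIPs and 20.9 ± 3.12 in MLCs. Mbp, coding for myelin basic protein, was at 21.6 ± 4.21 in FIPs and 3332 ± 62.8 in MLCs. Pmp22 and Ncam1 were held, and Sox10, which defines Schwann cells, was at most 1.85 in FIPs and 3.69 in MLCs. Lymphocyte, erythroid, mature adipocyte, skeletal muscle and epididymal markers had 1 to 3 tested members each and summed levels of at most 179 in FIPs and 248 in MLCs.

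Among genes with a mean of at least 100 in the population, the 4 with the largest SD of log2(value + 1) were Ifit1, Iigp1, Gbp6 and Rtp4 in FIPs, and Gbp10, Zbp1, Nlrc5 and Tgtp2 in MLCs. Iigp1, coding for an interferon-inducible GTPase, had 430.4, 1368, 411 and 3033 normalized counts in FIPs replicates 1 to 4, against 859.6, 1919.6, 689 and 9255 in MLCs replicates 1 to 4. Replicate 4 was highest in both, replicate 2 next, and the groups overlapped (difference -0.96 ± 0.78, log2, SE; adjusted p = 0.28). Gbp6, coding for a guanylate-binding protein, had 149, 299, 154 and 717 in FIPs, against 719.7, 1242, 825 and 3816 in MLCs, 4.87-fold higher in MLCs (adjusted p = 0.00198). Of 39 interferon response genes, listed after this spread had been seen, all 39 were highest in replicate 4 in FIPs and all 39 in MLCs, as were 33 in APCs and 35 in SMCs. These counts may partly follow from that choice, and the share of all genes tested that were highest in replicate 4 is not given here. The summed level of the 39 genes in replicate 4 was 1.45 times the median of the other libraries in FIPs and 2.60 times in MLCs.

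Of these genes 38 were tested, and 3 were called higher and 16 lower in FIPs. Without replicate 4 of both populations 3 were higher and 17 lower, and with the replicate number as a block 3 and 19. Rtp4 was not called (-1.21, adjusted p = 0.0576), but was called lower in FIPs without replicate 4 (-1.16, adjusted p = 0.0101). Over all genes, leaving out replicate 4 of both populations gave 4505 calls, 1772 higher and 2733 lower in FIPs. The labels do not say what replicates of the same number have in common. GBP genes and the interferon-inducible GTPase genes are families of near-identical copies, so single members are uncertain.

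**Figure D5:**
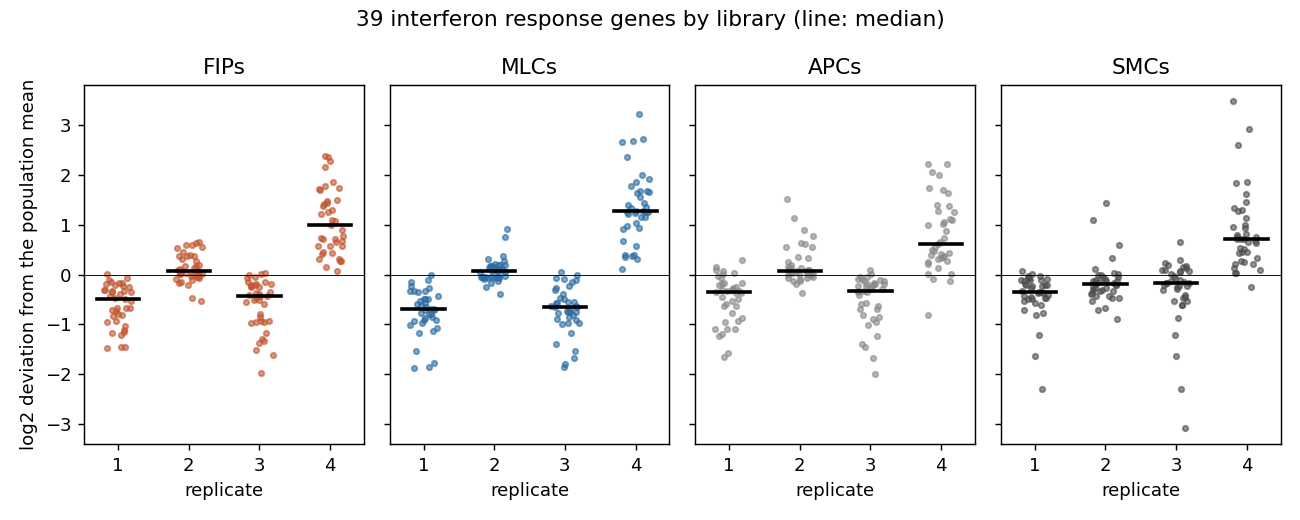
Log2 deviation of each of 39 interferon response genes from its mean in the same population, by replicate, for FIPs, MLCs, APCs and SMCs; points are genes and black lines are medians. Replicate 4 has the highest median in every population, at 0.99 in FIPs and 1.28 in MLCs.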

How the data were processed

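Total RNA of sorted cells was sequenced in 16 libraries. Per the submitters' processing notes, the tools were HISAT2 (version 2.0.1), featureCounts (1.4.6), Trim Galore (0.4.1) and DESeq2 (1.6.3), and the builds GRCm38 and mm10. No source used here gives the annotation or the strand setting, so antisense partners cannot be told apart. The authors deposited a signal per gene, that is, counts divided by 1 factor per library. Divided by the value of 1 read, 100% of values were whole within 0.01 in every library. Depth was taken from these reads. In FIPs replicate 1 and APCs replicate 2 that value was 0.989 and 1.007, so close to 1 that whole reads could not be told from the deposited values. The depth of these libraries is thus uncertain, and neither entered the count test. FIPs and MLCs were compared with limma 3.58.1 (R 4.3.3) on log2(value + 1), a mean-variance trend and Benjamini-Hochberg adjustment over all genes tested. The same comparison with edgeR 4.0.16 (quasi-likelihood test, TMM) on the whole reads of 7 libraries, 3 of FIPs and 4 of MLCs, called 4519 genes. Other settings were the added constant, the filter, scaling, a replicate block, all populations in 1 fit and leaving out libraries. The text names the 12 largest rises and falls, up to 4 called genes per list and direction and up to 3 held genes per list with the highest means, a panel of markers, the 10 highest held genes, the shared genes, the 4 genes of widest spread in each population, and the Hox genes. Other genes named were chosen after their values were seen. Members and lists were chosen with earlier results of these data known. Fits were checked on simulated data. Genes with near-identical copies are uncertain. Some genes that the rule would name are not reported here.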

Additional observations from a re-analysis of the deposited data

Results flagged for a closer look

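In 20 of 414 groups of 4 libraries, 4.83% of those checked over the genes named, 1 library stood apart from the other 3, and chance flags about 1 group in 20. Dpt in FIPs replicate 2 was below the rest at 49783 normalized counts, against 59792 to 60314 in the other 3, and Dpp4 in FIPs replicate 2 was below the rest at 1645 normalized counts, against 2139.9 to 2219 in the other 3. Lama5 in FIPs replicate 3 was below the rest at 40.1 normalized counts, against 73.5 to 81.4 in the other 3. Itga3 in FIPs replicate 3 was below the rest at 12.4 normalized counts, against 20.3 to 20.9 in the other 3, and Robo1 in FIPs replicate 2 was below the rest at 1806 normalized counts, against 1969 to 1996 in the other 3. Plxna4 in FIPs replicate 4 was below the rest at 59.9 normalized counts, against 72.6 to 74.2 in the other 3, and Cdkn1c in FIPs replicate 4 was below the rest at 10800.0 normalized counts, against 11560.0 to 11721 in the other 3. Egr1 in FIPs replicate 1 was below the rest at 103231 normalized counts, against 108826 to 109339 in the other 3. Nr2f1 in FIPs replicate 4 was above the rest at 914 normalized counts, against 860.2 to 869 in the other 3. Pkhd1l1 in MLCs replicate 2 was below the rest at 27705 normalized counts, against 33469.8 to 34179 in the other 3, and Fzd6 in MLCs replicate 1 was below the rest at 597 normalized counts, against 633 to 641 in the other 3. Fgfr3 in MLCs replicate 4 was below the rest at 331 normalized counts, against 344 to 346 in the other 3, and Nfkbia in MLCs replicate 1 was below the rest at 12919.9 normalized counts, against 15075 to 15529 in the other 3. Sox9 in MLCs replicate 1 was below the rest at 48.6 normalized counts, against 58.4 to 59.0 in the other 3. H19 in MLCs replicate 2 was above the rest at 1085 normalized counts, against 695 to 732 in the other 3, and Boc in MLCs replicate 2 was above the rest at 6643 normalized counts, against 6378 to 6415 in the other 3. Il6 in MLCs replicate 4 was above the rest at 104 normalized counts, against 87.0 to 89.6 in the other 3, and C3 in MLCs replicate 2 was above the rest at 97572 normalized counts, against 91973 to 92669.9 in the other 3. Ebf2 in MLCs replicate 1 was above the rest at 43.6 normalized counts, against 37.6 to 38.1 in the other 3, and Cd9 in MLCs replicate 4 was above the rest at 2186 normalized counts, against 1923 to 1950.1 in the other 3. None of these 20 genes had overlapping FIPs and MLCs libraries. Many were named because they were called, so this largely follows from the choice. Of all called genes, 1748 of 1765 higher and 2698 of 2725 lower in FIPs had no overlap either. The share over all genes tested is not given here.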

How the results depend on the processing

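Leaving out 1 library at a time gave 4461 to 4536 called genes, 1759 to 1783 of them higher and 2691 to 2759 lower in FIPs, and 8709 to 8809 held within 2-fold. No gene called in the reported comparison and under another setting had opposite signs in the 2. A call needs a difference of at least 1 on the log2 scale, so small shifts could not have given opposite signs. The number of genes high in both populations depended on the ratio asked for, with 16 at a ratio of 2 and 0 at a ratio of 8, against 3 at a ratio of 4. Of the calls 39.3% were higher in FIPs, against 28.1% with equal totals and 47.1% with quantile normalization, which moved the median of all genes by 0.11. Without a filter on low values 6023 of 22542 genes were called. The replicate block gave 4497 calls and added Rtp4 and Zbp1 among the named genes. Libraries of the same number correlated at 0.0157 to 0.208 and others at -0.174 to 0.0819. In 3 of 4 FIPs libraries the best match was the MLCs library of the same number. The reported fit took no pairing because the labels do not say what the numbers mark, and what such libraries share was not tested. edgeR gave no interval and so no count of held genes. Leaving out replicate 4 of both populations was chosen after seeing the data. The depth of 20.8 to 25.4 M reads limits genes near the filter of 10.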
